A study of Mus musculus with 2 samples.

Results

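A set of 10 genes that respond to canonical WNT signalling, and in most cases feed back on it, was followed in mouse urogenital ridges that had or lacked a working receptor for MIS. MIS (Müllerian inhibiting substance or anti-Müllerian hormone) is the testis hormone that removes the Müllerian duct in male embryos. The genes were Axin2, Nkd1, Nkd2, Notum, Apcdd1, Lgr5, Znrf3, Rnf43, Lef1 and Tcf7. They were chosen by name, and every probe set that the platform annotation assigns to 1 of them alone was taken. That gave 24 of the 45037 probe sets on the array and 9 of the 10 genes, because no probe set was named for Tcf7. The signal of Tcf7 was therefore not analysed here, and only its promoter sequences were searched. Of the 24 probe sets, 20 were measured, meaning that at least 1 pool reached the median signal of its array.

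RNA came from ridges of embryos at E14.5 on a mixed C57Bl/6 and 129SVEV background, from which the gonads had been removed. The ridge carries the Müllerian and Wolffian ducts and their mesenchyme. The Misr2+/- ridges formed the heterozygous pool and the Misr2-/- ridges the homozygous pool. Each combined about 100 ridges, which had been scored for genotype with a YFP reporter, and each was hybridised to 1 array. Misr2 (Amhr2 in the annotation) is the gene of the type II MIS receptor, and the labels call the first pool responsive and the second unresponsive to the hormone. Every embryo in either pool carried at least 1 deleted allele, so that no wild-type ridge was measured, and the labels do not give the sex of the embryos. With 1 array per genotype there is no measure of variation between pools, and no difference was tested.

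In canonical WNT signalling, ligand binding to a Frizzled receptor and its LRP co-receptor stops the destruction of beta-catenin, which then enters the nucleus and switches on genes together with TCF and LEF proteins. Many of the genes that are switched on restrain the pathway in turn, at the ligand, at the receptor or inside the cell, which is why their transcripts serve as a readout of pathway activity. WNT ligands are needed for the Müllerian duct to form, and beta-catenin in the mesenchyme around it is known to take part in its regression.

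RefSeq promoter sequences (GRCm38.p6, 250 bases before the start and 50 from it) were taken for 6 of the 10 genes, 11 sequences in all. Notum, Lgr5 and Znrf3 had none on hand. Apcdd1 was left out of the search, so nothing is said here of its promoter. The 11 sequences were searched on both strands for CTTTG, the core of the sequence that TCF and LEF proteins bind. The core stood in 4 of the 11, all 4 of them starts of Lef1, against 53.9% of 32851 mouse promoters of the same length. The windows of the first 2 Lef1 starts overlap and hold the same matches. Of the 6 genes searched, the core was found in Lef1 alone. The longer form CTTTGNN, with A or T at each N, overlaps the core and stood in 1 of the 11, also a Lef1 start, against 16.9% of all promoters. Printed here are the gene with the largest difference between the pools (Nkd2, chr13:73847582-73847881, minus strand), the standard readout of the pathway (Axin2, chr11:108920099-108920398, plus strand) and, for contrast, the first listed start of Lef1 (chr3:131110047-131110346, plus strand), each 5′ to 3′ along its gene, with the core in capitals. A match in these windows is a description of the letters and not a binding site.
Nkd2: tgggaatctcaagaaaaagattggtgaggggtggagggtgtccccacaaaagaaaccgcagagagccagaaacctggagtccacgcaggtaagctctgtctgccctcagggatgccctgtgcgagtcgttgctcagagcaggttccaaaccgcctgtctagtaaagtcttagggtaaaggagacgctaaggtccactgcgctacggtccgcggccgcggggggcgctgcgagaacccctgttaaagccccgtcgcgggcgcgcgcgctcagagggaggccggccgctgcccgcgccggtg
Axin2: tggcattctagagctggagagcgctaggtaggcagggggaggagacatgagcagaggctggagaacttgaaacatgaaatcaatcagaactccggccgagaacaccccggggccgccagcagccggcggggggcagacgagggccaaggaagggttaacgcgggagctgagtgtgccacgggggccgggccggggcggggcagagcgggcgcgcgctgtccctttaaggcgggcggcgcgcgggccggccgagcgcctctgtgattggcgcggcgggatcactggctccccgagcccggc
Lef1: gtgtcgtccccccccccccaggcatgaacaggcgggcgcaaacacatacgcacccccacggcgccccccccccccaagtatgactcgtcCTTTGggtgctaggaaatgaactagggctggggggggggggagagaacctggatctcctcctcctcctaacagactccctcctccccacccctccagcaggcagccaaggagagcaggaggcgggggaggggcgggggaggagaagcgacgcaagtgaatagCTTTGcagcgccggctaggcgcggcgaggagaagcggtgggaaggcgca

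Most of the 9 genes had higher signals in the homozygous pool, and none was lower by 1.5-fold. The homozygous array as a whole was brighter, with a median of 139.4 against 116.5, a shift of 0.26 on the log2 scale. Differences below are log2 values, homozygous minus heterozygous, after this shift was taken off, and signals are linear intensities as deposited. With 1 probe set per gene, the brightest, 7 of 9 genes lay above 0 and 2 below, against 57.7% above 0 among all 11432 measured genes. The median of the 9 was 0.44, against 0.04 for all measured genes (0.70 against 0.29 as deposited, and 0.087 against -0.32 on the scale of the hybridisation spikes). Nkd2, Notum, Apcdd1 and Lgr5, 4 genes in all, were at least 1.5-fold higher, a mark that 2.08% of all measured genes passed upward and 0.883% downward. Nkd2 alone was at least 2-fold higher, as were 0.236% of all genes. Its value fell under 2-fold against the spikes (0.74), as the median of its probe sets (0.94), and under a floor raised to the 75th percentile (0.66). As deposited, 6 of the 9 were at least 1.5-fold higher and none lower, against 10.1% of all genes higher. Against the array's hybridisation spikes in place of the median, 6 of 9 lay above 0, where all measured genes had a median of -0.32. On that scale 1 of the 9 was at least 1.5-fold higher and 1 at least 1.5-fold lower, against 0.332% of all genes higher and 8.63% lower. In pooled tissue, fewer cells of a type and less RNA per cell cannot be told apart.

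**Figure D1:**
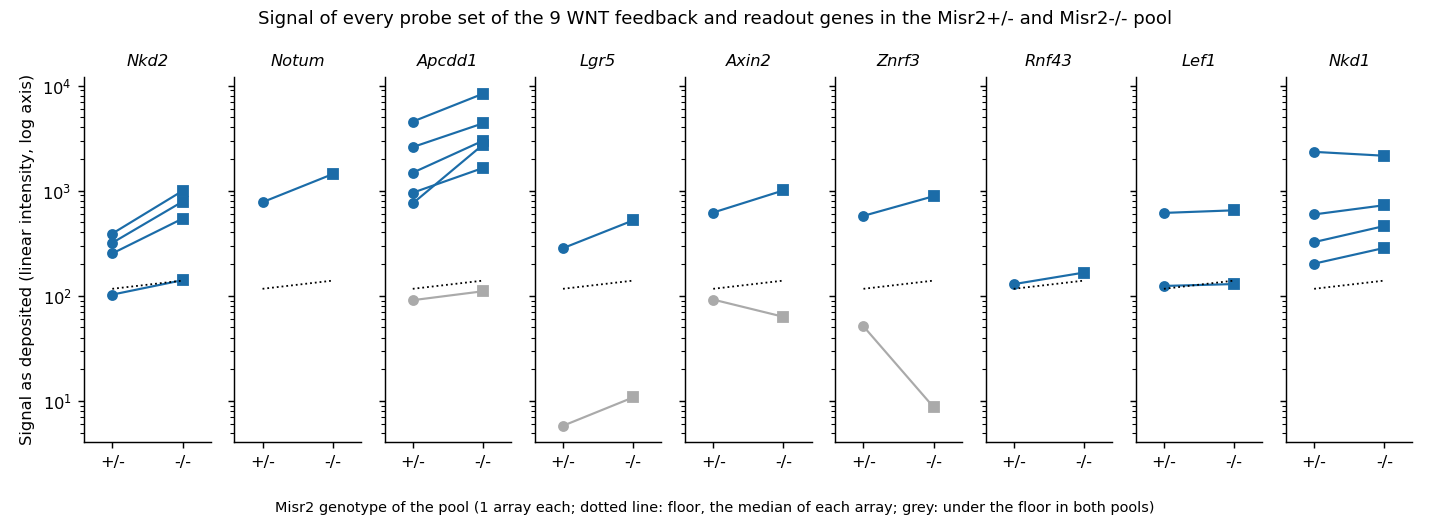
Signal of each of the 24 probe sets (linear intensity as deposited, log axis) in the Misr2+/- pool (circles) and the Misr2-/- pool (squares), 1 panel per gene, with the floor of each array dotted and the 4 probe sets under it in both pools in grey. All 5 measured Apcdd1 lines and the 3 brighter Nkd2 lines climb more steeply than the floor, while the brightest Nkd1 line falls from 2340 to 2149.2.

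To judge sizes without replicate arrays, each gene's own probe sets were compared with each other. Across 5264 genes with more than 1 measured probe set, this probe set spread was 0.23 (SD of log2 differences), from 0.27 among the dimmest to 0.20 among the brightest. It covers what differs between probe sets of a gene on these arrays and leaves out any variation between pools of embryos.

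Nkd2 encodes naked cuticle 2, which binds Dishevelled inside the cell and dampens the signal. Its brightest probe set went from 390.6 (heterozygous) to 995.1 (homozygous). The next went from 318.9 to 786.3, and the third from 252.8 to 541.8. The differences of these 3 were 1.09, 1.04 and 0.84, each over 3 times the probe set spread. The sets at 1.04 and 0.84 were designed from the same GenBank entry. The fourth, which is marked as open to cross-hybridisation, stood at the floor, at 102.6 and 140.7, and with the heterozygous signal raised to the floor its difference was 0.01. By its brightest probe set Nkd2 ranked 18 from the top of 11432 genes, and 2.52% of the 2858 genes of similar signal were at least 1.5-fold higher. The authors' deposited table of fold changes, on a scale of its own, lists its 2 brightest probe sets at 2.105-fold and 2.037-fold higher in the homozygous pool. That table comes from the same 2 arrays and holds no absolute fold under 2, so the listing is not a separate measurement.

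Nkd1, the paralogue with the same role, did not share that pattern. Its brightest probe set went from 2340 to 2149.2, a difference of -0.38, the lowest of the 9 genes. Its other probe sets went from 594.4 to 727.2, from 324.1 to 461.1 and from 202.1 to 285.4, with differences of 0.03, 0.25 and 0.24. The sets at -0.38 and 0.24 were designed from the same GenBank entry, and its probe sets lay on either side of 0, as in 82.0% of the 846 genes with at least 4 measured probe sets. Its probe sets spanned 0.63, a span reached by 35.7% of those genes.

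Apcdd1 encodes a membrane glycoprotein that binds WNT ligands and their LRP co-receptor and blocks signalling at the cell surface. Its brightest probe set went from 4541.7 to 8359, and the next from 2598 to 4371.9. Its next sets went from 1482.5 to 2985.7 and from 956.1 to 1643.7. These 4 had differences of 0.62, 0.49, 0.75 and 0.52. The sets at 0.49, 0.75 and 0.52 were designed from the same GenBank entry. The remaining measured probe set went from 757 to 2739.8, a difference of 1.60. It is the 1 set of this gene in the authors' deposited table, at 2.991-fold, where no absolute fold is under 2. Its suffix marks possible cross-hybridisation, as do those of the 2 brightest sets, and the sets without that mark are those at 0.75 and 0.52. Of the 846 genes with at least 4 measured probe sets, Apcdd1 was the 1 whose lowest probe set was as high as 0.49, a measure chosen after its values were seen. A sixth probe set, at 90.8 and 110.4, did not reach the floor in either pool. Among the 2858 brightest genes, where Apcdd1 belongs, 0.56% were at least 1.5-fold higher.

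Notum, a secreted enzyme that removes the lipid from WNT ligands and so inactivates them, had 1 probe set, which went from 777.1 to 1438, a difference of 0.63. At similar signals 0.98% of genes were at least 1.5-fold higher. Axin2, a scaffold of the complex that destroys beta-catenin and the most used readout of the pathway, went from 619.5 to 1005.5 on its 1 measured probe set, a difference of 0.44. That is less than 1.5-fold, and 5.04% of all measured genes lay as high or higher. Its second probe set, at 92 and 63.1, was under the floor in both pools and has no usable direction.

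**Figure D2:**
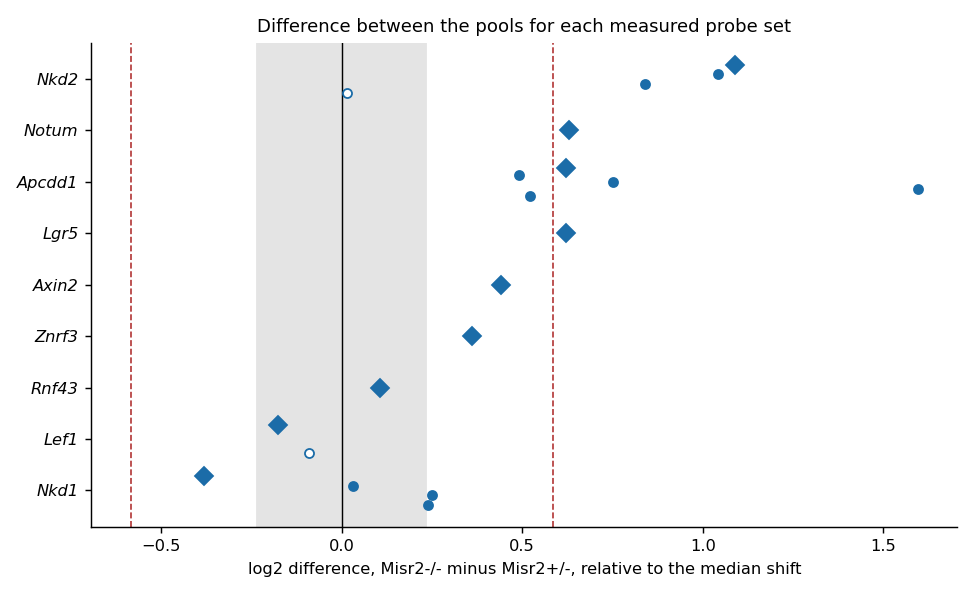
Difference between the pools (log2, homozygous minus heterozygous, relative to the median shift) for each of the 20 measured probe sets, with the brightest of each gene as a diamond and sets under the floor in 1 pool as open symbols; the grey band is 1 SD of the spread between probe sets of a gene (0.23) and the dashed lines mark 1.5-fold. The 5 points of Apcdd1 and the 3 brighter ones of Nkd2 lie to the right of the band, the fourth Nkd2 point lies at 0.01, and Nkd1 has points on either side of 0.

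Lgr5, Znrf3 and Rnf43 act together at the receptor. Lgr5 binds R-spondins, which remove the membrane ubiquitin ligases Znrf3 and Rnf43, and these ligases otherwise clear Frizzled receptors from the surface. Lgr5 went from 283.8 to 521.9, a difference of 0.62, and its second probe set, at 5.8 and 10.8, was under the floor in both pools. Znrf3 went from 576.1 to 885.8, a difference of 0.36 or 1.28-fold, and its second probe set was likewise under the floor. Rnf43 had 1 probe set just above the floor, at 129 and 166.2, with a difference of 0.11. That is within the probe set spread. Against the spikes Znrf3 stood at 0.0094 and Rnf43 at -0.25.

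Lef1, a nuclear partner of beta-catenin that is itself a WNT target in many tissues, was the other gene below 0. Its brightest probe set went from 614.2 to 650.3 and its second from 124 to 129.3, the latter under the floor in the homozygous pool. The differences were -0.18 and -0.09, both within the probe set spread. As deposited, without the median shift, the first was 0.08. The direction of Lef1 thus changed with the scaling.

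**Figure D3:**
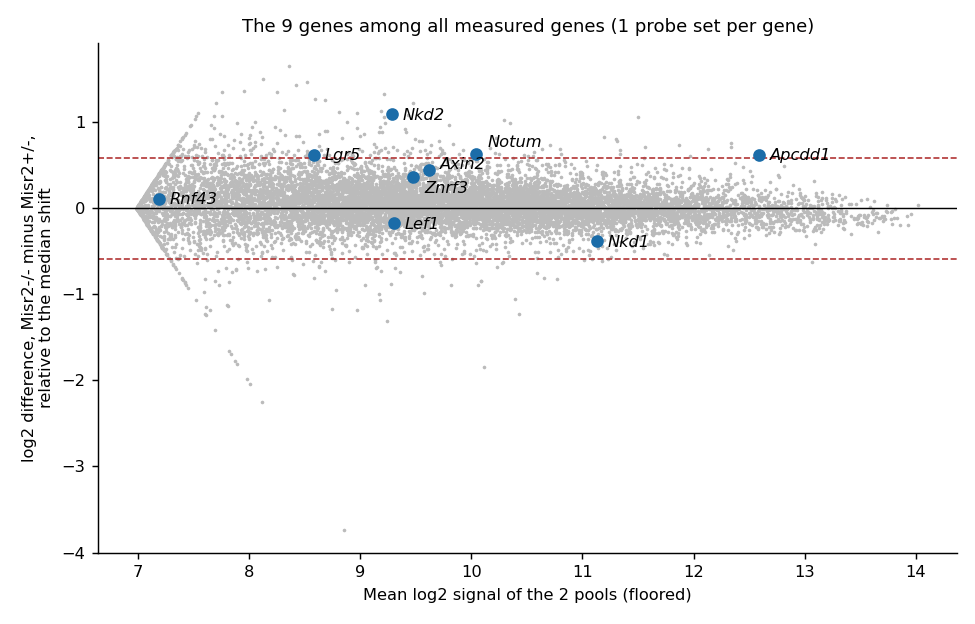
Difference between the pools (log2, relative to the median shift) against mean log2 signal for 11432 measured genes (grey) with the 9 WNT feedback and readout genes in blue, and 1.5-fold dashed. Nkd2 stands highest of the 9 at 1.09, and Apcdd1, at 0.62, has few neighbours as high among the brightest genes.

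Notum, Apcdd1 and Lgr5 all sat close to the 1.5-fold mark, which is 0.58 on this scale, and their place above it depended on the scaling. Scaled to the 75th percentile of each array, 2 genes were past it instead of 4, against 1.67% of all genes. Counting single probe sets in place of genes, 17 of the 20 measured sets lay above 0 and 3 below. The share above 0 among all measured probe sets was not computed, so this count has no baseline. Of the 20, 8 were at least 1.5-fold higher, against 2.43% of all measured probe sets with 1 gene symbol, and 3 were at least 2-fold higher, against 0.282%. Probe sets of 1 gene are not independent of each other, and 5 of the 20 belong to Apcdd1.

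**Figure D4:**
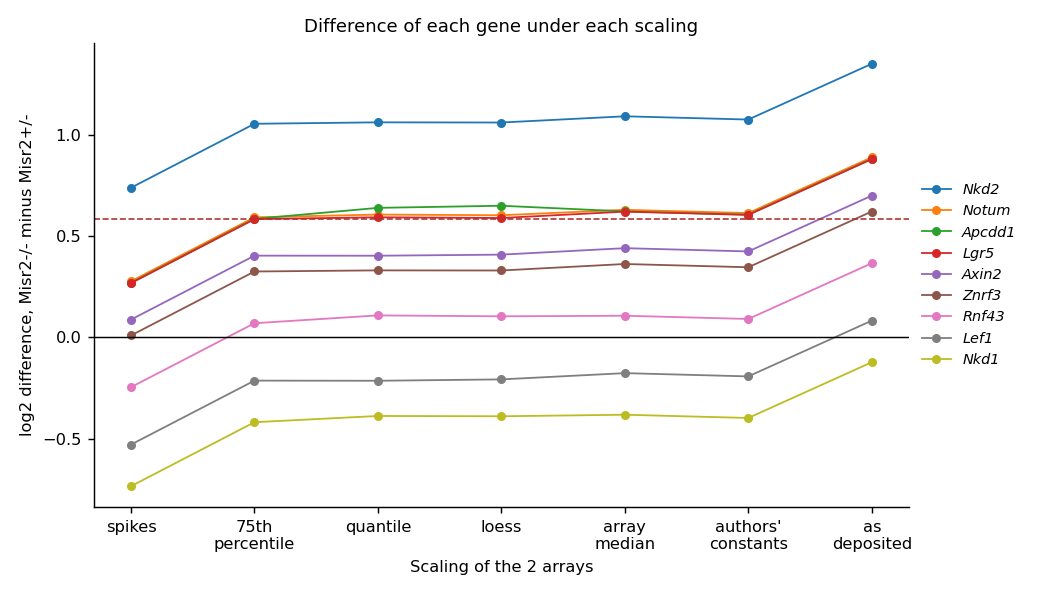
Difference of each of the 9 genes (log2, homozygous minus heterozygous) under 7 scalings of the arrays, with 1.5-fold dashed. The whole group shifts: Nkd2 runs from 0.74 against the spikes to 1.35 as deposited, and Axin2 from 0.09 to 0.70. All scalings but quantile and loess differ by a constant, so the order of these genes cannot change among them. With quantile and loess scaling Apcdd1 (0.64 and 0.65) passes Notum (0.61 and 0.60).

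Genes elsewhere in the pathway were set beside these by role. Of 19 WNT ligands 10 were measured, 4 above and 6 below 0. Their median was -0.13, which turned to 0.13 as deposited. Wnt7a, the ligand of the Müllerian duct epithelium, stood at 0.65 and was the 1 ligand at least 1.5-fold higher. Its second probe set stood at 0.22, and no ligand was 1.5-fold higher with the median or the second brightest of a gene's probe sets, with the floor at the 75th percentile or against the spikes. Wnt4, which the duct needs to form, went from 2092.9 to 1779.9, a difference of -0.49, with its second probe set at -0.48. Wnt5b stood at 0.27. Of 16 receptors and co-receptors 14 were measured, with a median of 0.08 (-0.27 against the spikes). Fzd10, a Frizzled receptor, stood at 0.999 on 1 probe set, and Fzd6 and Ror2 at 0.28 and 0.26. Wnt5b, Fzd6 and Ror2 turned negative against the spikes.

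R-spondins and the relatives of Lgr5, through which they act, gave similar signals on both arrays as deposited. Of 6 such genes 3 were measured. Rspo1 was at 715.8 and 728.5, Rspo3 at 1954.1 and 1957.6, and Lgr4, the close relative of Lgr5, at 1113.7 and 1124.2. Relative to the median shift these were -0.23, -0.26 and -0.25, about the size of the probe set spread. Against the spikes they were -0.59, -0.61 and -0.60, each at least 1.5-fold lower, as were 8.63% of all genes on that scale.

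Secreted inhibitors that are not among the 10 genes had a median of -0.01 over 11 measured of 14 (0.25 as deposited), 5 above and 6 below 0. Wif1, which binds WNT ligands, went from 397.8 to 65.4 and was at least 3.41-fold lower, while Frzb stood at 0.51 and Dkk3 at 0.46, although the second probe set of Dkk3 stood at -0.31. Beta-catenin and the proteins that control its stability had a median of -0.11 over 15 measured of 17 (0.15 as deposited). None of them differed by 1.5-fold. As deposited 1 was that much higher, against 10.1% of all genes. On the spike scale, where the median was -0.46, 1 was that much lower, against 8.63% of all genes. Ctnnb1, beta-catenin itself, was at 10823.1 and 12220.3, a difference of -0.08. The 3 with the largest differences were Gsk3a (0.34), Axin1 (0.27) and Amer1 (-0.26), and those of Axin1 and Amer1 had a second probe set on the other side of 0. Against the spikes Gsk3a and Axin1 turned negative.

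Nuclear partners of beta-catenin had a median of 0.04 over 15 measured of 16 (-0.31 against the spikes). None differed by 1.5-fold. As deposited 1 was that much higher, against 10.1% of all genes, and on the spike scale 2 were that much lower, against 8.63%. Bcl9 stood at 0.44, Chd8 at -0.31 and Tle1 at -0.28, each with a second probe set on the other side of 0. Other genes that WNT induces in many tissues had a median of 0.08 over 15 measured of 21 (-0.27 against the spikes), with 10 above and 5 below 0. Tnfrsf19, a receptor of the TNF family, was 1.52-fold higher, with 2 of its 3 probe sets above 0. It fell short of 1.5-fold with the 75th percentile, loess and spike scalings. The same held with the median or the second brightest of its probe sets. Sox9 and Bambi were 1.55-fold and 1.52-fold lower, and as deposited, at -0.38 and -0.34, neither passed 1.5-fold. The 10 feedback and readout genes and these other induced genes were both listed with earlier results of these arrays known, and the difference between the lists was not tested.

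**Figure D5:**
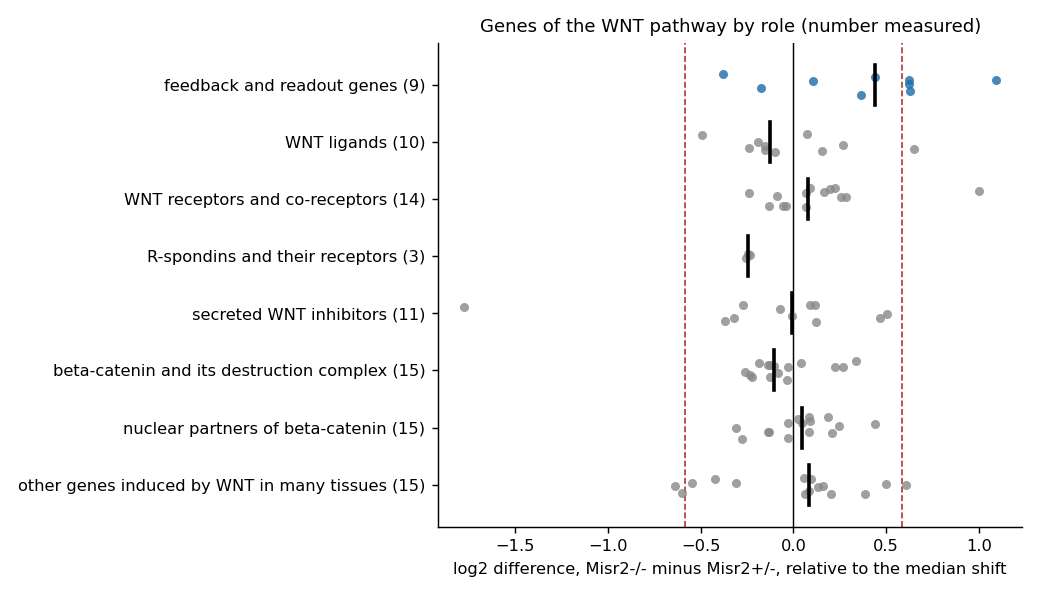
Difference between the pools (log2, relative to the median shift) for measured genes of the WNT pathway by role, 1 point per gene, with the median of each list as a black bar and 1.5-fold dashed. The feedback and readout genes have a median of 0.44, and the medians of the other lists run from -0.25 for R-spondins and their receptors (0.014 as deposited) to 0.08 (-0.27 against the spikes).

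Several measures of the samples were set beside these results. Amhr2 itself went from 1549.6 to 10.2, from 1047.8 to 27.7 and from 181 to 2.8 on its 3 probe sets, in the direction of the labels. Of 14 measured duct epithelium markers 11 lay above 0. Their median was 0.22 (-0.13 against the spikes), and their signals summed to 16791 (heterozygous) and 23404.2 (homozygous). Sall1 stood at 1.33, Wnt7a at 0.65 and Gata3 at -0.53, and Ret was under the floor in both pools. Ridge mesenchyme and coelomic markers had a median of -0.07 over 11 measured of 12 (0.19 as deposited), with sums of 28106.3 and 32578.7, Osr1 at -1.14 and Lhx9 at -0.53. Germ cell markers had a median of -0.38 over 7 genes, 2 above and 5 below 0 (sums of 1599.2 and 1430.4), with Dazl at -1.19, Dppa3 at -1.12 and Tfap2c, whose heterozygous signal was under the floor, at 1.10 or higher. Fetal testis markers had a median of -0.47 over 7 (sums of 1887.8 and 1783.7), with Defb19 at -0.66 or lower, Sox9 at -0.64 and Amh under the floor in both. Medians of the fetal ovary, kidney, macrophage, endothelial, neural and red blood cell lists ran from -0.19 to 0.16. The kidney and neural medians rest on 3 and 2 measured genes. Single genes lay further out, such as Cx3cr1 (macrophage) at -0.87, Kdr (endothelial) at -0.53 and Slc4a1 (red blood cell) at 0.53. The second probe set of Cx3cr1 stood at -0.31. Genes of the same lists went the other way, such as C1qc (macrophage) at 0.22, Cdh5 (endothelial) at 0.49 and Hba-x (red blood cell) at -0.11. Macrophage markers lay 2 above and 7 below 0, endothelial markers 5 above and 3 below, and red blood cell markers 1 above and 3 below. The Y-linked genes Eif2s3y, Kdm5d and Uty, chosen for this purpose, stood at 0.10, 0.17 and 0.38 (-0.25, -0.18 and 0.03 against the spikes). Kdm5d had 1 of its 2 measured probe sets above 0 (lowest -0.34), and Uty had 2 of 4 (from -0.22 to 0.61). Xist, at 61.5 and 121.4, did not reach the floor in either pool. The part of cell makeup or sex ratio in the WNT results was not tested.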

How the data were processed

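Labelled RNA of 1 pool per genotype was hybridised to 1 Affymetrix array each. Each probe set has 1 linear intensity per array in the deposited value table; GCOS and MAS5 are named without version or role per the submitters' processing notes, and no source used here gives the scaling. The authors' deposited table lists 739 probe sets with intensities and a signed fold, treated as a score. The smallest absolute fold in that table is 2. Its intensities equal those of the value table times 1.09 (heterozygous) and 0.901 (homozygous).

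The 64 control probe sets were left out. Genes were named through the platform annotation from the 34945 probe sets with 1 symbol (932 had several, 9160 were not listed with a gene). Chromosomes came from RefSeq (GRCm38.p6), and 34741 probe sets matched it by Entrez identifier. The floor was each array's median. Signals under it were raised to it, and a probe set was measured if 1 signal reached it. The log2 difference had the median shift of 0.26 taken off. A gene was represented by its brightest measured probe set. Each of the 2 arrays is 1 sample, their number limits the precision, and no p-values are given. The probe set spread is the SD of the difference between the 2 brightest measured probe sets of a gene, divided by the square root of 2.

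The members, lists and alternatives were chosen with earlier results of these data known. Named were all members, Amhr2, the 3 genes of each other WNT list with the largest absolute difference, and leading cell type markers. Further genes (Ctnnb1, Amh, Ret, Gata3, Tfap2c and the sex-linked genes) were named after their values could be seen. Alternatives changed the scaling, the floor, the probe set that stands for a gene and the threshold. The procedure was tested on simulated data with 2-fold changes and less noise than the probe set spread. That test therefore does not bear on calls near 1.5-fold. Python 3.11.15, numpy 2.4.6, pandas 2.3.3 and statsmodels 0.14.6 were used.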

Additional observations from a re-analysis of the deposited data

How the results depend on the processing

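The count of 4 genes at least 1.5-fold higher became 2 with arrays scaled to the 75th percentile, 1 against the hybridisation spikes and 1 at a 2-fold threshold. The median of the 9 genes, 0.44, became 0.70 as deposited and 0.087 against the spikes. The spikes lie 0.35 beyond the median shift, a constant that moves every gene above the floor alike. Under the other 12 alternatives for the count and the other 11 for the median, neither moved by more than 1.5 times or by more than the probe set spread. Nkd2, Notum, Apcdd1, Lgr5, Axin2 and Znrf3 lay above 0 under every alternative that measured them, Znrf3 by as little as 0.01. Nkd1 turned positive with the median of its probe sets (0.14) and with the second brightest (0.03), Rnf43 turned negative against the spikes (-0.25), and Lef1 turned positive as deposited (0.08). With the floor at the 60th percentile 8 genes were measured and at the 75th 7. Scaling to the authors' constants was added after the data were seen and gave 4 genes and a median of 0.42. No paired analysis was possible because each genotype has 1 array. The signal over background limits Rnf43 and the dim probe sets of Nkd2 and Lef1 most.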

Other observations

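Of the 19 WNT ligand genes, 9 were under the floor in both pools, among them Wnt1 (9.2 and 34), Wnt3a (12.1 and 14.7) and Wnt10b (17.6 and 18.6), which are ligands of the canonical pathway in other tissues. Rspo2 and Rspo4, which encode R-spondins, were under it as well, at 68.5 and 86.3 and at 4 and 8.7. The WNT target genes Cdx1, Cdx2, Fgf4 and Ascl2, which mark gut or early embryonic tissues, were also under the floor in both pools. A signal under the floor does not show that a transcript is absent.

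Among dim probe sets of the 10 genes, the second of Znrf3 had signals of 51.2 and 8.7 and the second of Axin2 92 and 63.1, all under the floor, so that neither has a usable direction. Sp5, a transcription factor that is a direct WNT target in many tissues, went from 179.3 to 280.4, a difference of 0.39 (0.03 against the spikes), and Twist1, a mesenchymal transcription factor, from 428.6 to 725.3, a difference of 0.50. Both belong to the list of other induced genes, of which 10 lay above and 5 below 0. In that list Cd44 stood at -0.55, Zcchc12 at -0.42 and Ephb3 at -0.31. The genes named here from that list were picked after their values were seen.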
